A study of Mus musculus with 2 samples.

Results

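The classes named EEC-PRE, EC and NON-EC by the authors were compared in crypt cells of the mouse ileum, to describe how hormone cells differ from enteroendocrine precursors. Cells listed as EC or NON-EC in the deposited cell table were pooled as hormone cells and set against cells listed as EEC-PRE. There were 470 such cells of 11562 listed in all, 202 in replicate 1 and 268 in replicate 2. Hormone cells numbered 340 (145 and 195), of which 125 were EC (42 and 83) and 215 NON-EC (103 and 112), and EEC-PRE cells numbered 130 (57 and 73).

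The study has 1 group, sampled at 1 time, so no cell was followed from one class to another. It holds 2 single-cell libraries of Tom+ crypt cells from the ileum of Atoh1CreER-T2;R26RTom mice, labelled WT, that were given 2 doses of tamoxifen (1 mg/mL, into the peritoneum) 24 h apart and were killed 12 h after the last dose. Atoh1CreER-T2 is a recombinase that tamoxifen lets into the nucleus of cells in which the Atoh1 locus is active, and R26RTom is a reporter that leaves such cells and their progeny red. The red gate thus holds cells that were Atoh1-active or descend from such cells, and all classes share it. Neither age nor sex, nor whether the libraries came from separate mice, is in the labels. Every p-value below rests on a spread between library sums that was estimated over all classes of the cell table. That spread comes mostly from classes other than those compared, and it may be technical.

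Enteroendocrine cells are the hormone cells of the gut lining. They arise from secretory progenitors through a short-lived state driven by the transcription factor Neurog3, then switch on late factors that set which hormone is made. Enterochromaffin cells make serotonin, and other enteroendocrine cells make peptides such as the incretins Gip and Gcg-derived GLP-1, the satiety peptides Cck and Pyy, and the appetite hormone Ghrl. Products are packed with granin proteins into dense-core vesicles and released by regulated exocytosis.

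The classes fitted their names by defining markers, although the sources used here do not give how the authors assigned cells. If it was by expression, genes that define a class differ by construction, and the calls below describe the classes and are not independent evidence of them. The 10 enteroendocrine markers summed to 3785 and 3804 CPM (UMIs scaled to a common total per sum) in EEC-PRE of replicates 1 and 2, to 63418 and 42403 in EC and to 11265 and 9759 in NON-EC. The 7 enterochromaffin markers summed to 16323 and 8511 CPM in EC, against 2391 and 1935 in NON-EC. The 11 markers of peptide hormone cells summed to 25010.2 and 17634 CPM in NON-EC, against 1203 and 1457 in EC and 211 and 419 in EEC-PRE. Throughout, 2 values joined by "and" are replicate 1 and replicate 2.

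Goblet and Paneth transcripts were present in all 3 classes and did not move evenly. The 10 goblet markers summed to 15466 and 16214 CPM in EEC-PRE, 2445 and 13617 in EC and 18909.6 and 17250.1 in NON-EC, and Atoh1 alone of them was at 0, in EEC-PRE of replicate 2 and EC of replicate 1. The 13 Paneth markers summed to 11279 and 18733 CPM in EEC-PRE, 12512 and 30392 in EC and 12629 and 17621 in NON-EC, with none at 0. Of the goblet markers Muc2 was called higher and Tff3 lower in hormone cells, and of the Paneth markers edgeR in the main fit and DESeq2 called none, with 0 of 13 at an unadjusted p under 0.05. Zg16, not called in the main fit, was called higher in 7 alternatives, among them DESeq2 (adjusted p = 0.0106) and cells thinned to 1500 UMIs (edgeR, 0.0015). With only the 4 sums of EEC-PRE and hormone cells fitted, edgeR called the Paneth marker Mmp7 lower (adjusted p = 0.00896). Tff3 was not called without replicate 1 (adjusted p = 0.0553). Cells with over 5% of their UMIs (unique transcript counts) in either list numbered 8 in EEC-PRE, 10 in EC, all of replicate 2, and 18 in NON-EC. Without them 751 genes were called higher and 431 lower, against 765 and 437 with them. Muc2 was then no longer called, with a log2 change of 0.29 in place of 0.88 (adjusted p = 0.805 in place of 0.0313, edgeR).

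EEC-PRE gave 236455 and 176639 UMIs and hormone cells 501400 and 542702. The median cell held 3897 and 2157 UMIs in EEC-PRE and 3425 and 2336 in hormone cells. The median share of mitochondrial UMIs was 4.72% and 3.83% in EEC-PRE and 2.69% and 2.68% in hormone cells. No cell barcode of these classes was shared between the libraries, while 12 listed barcodes were shared over all classes. Hormone cells were 71.8% (exact 95% interval 65.0 to 77.9) and 72.8% (67.0 to 78.0) of the 3 classes, but EC cells were 29.0% of hormone cells in replicate 1 and 42.6% in replicate 2.

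Of 11263 genes tested with edgeR's quasi-likelihood test, 765 were higher in hormone cells at a Benjamini-Hochberg adjusted p under 0.05, which is 6.79%, and 437 were lower, which is 3.88%. All log2 changes are hormone cells minus EEC-PRE with their SE, over 2 sums a side. Levels of single genes are CPM of a class's summed UMIs with scaling factors, so they are shares of that class's RNA and not amounts per cell. The factors, which divide these levels, were 1.28 and 1.27 for EEC-PRE and 1.30 and 1.32 for hormone cells. Marker and list sums are CPM without those factors. The split between directions depended on the scaling. With factors from all genes 612 were higher and 522 lower, and with relative log expression factors 533 and 600, so that the higher genes were 54.0% and 47.0% of the calls in place of 63.6%. The median change over all genes moved from 0.22 to 0.12 and 0.05. DESeq2 called 316 higher (35% of its calls) and 587 lower, with a median of 0.03. No gene called in the main fit was called the opposite way in any of the 13 alternatives, but small changes near the median should be read against that shift. Without replicate 1, with the lone sum on each side assumed to vary like those of other classes, 148 genes were higher and 169 lower.

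**Figure D1:**
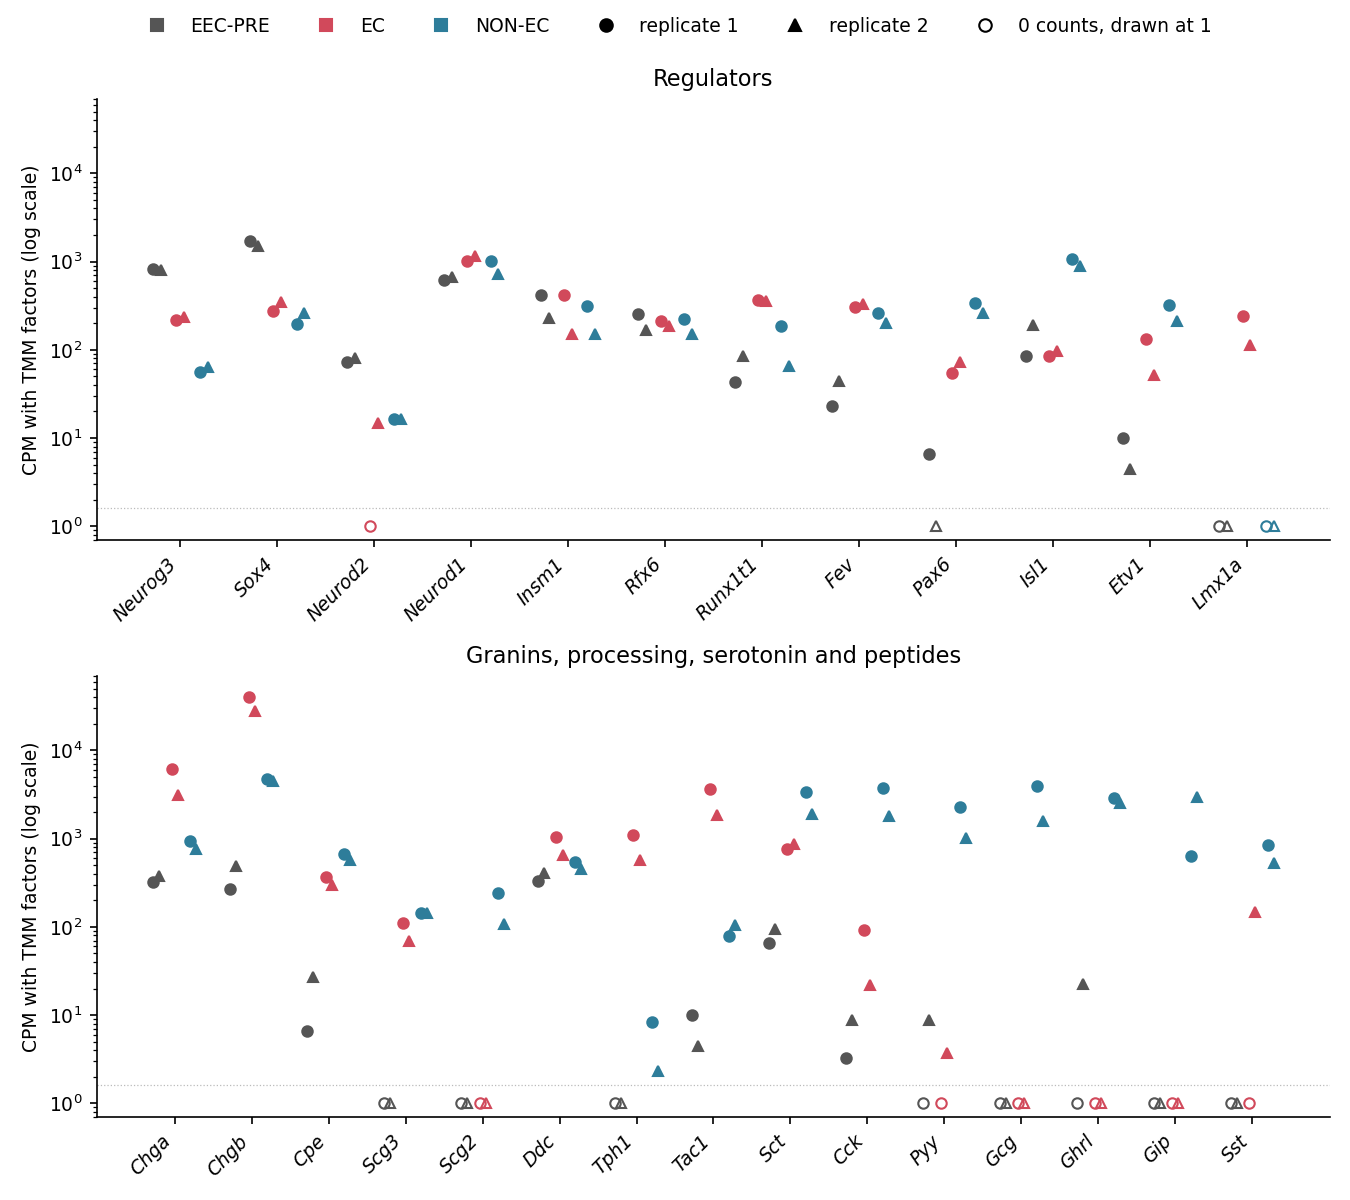
CPM (log axis) of regulators (upper panel) and of granins, processing enzymes, serotonin genes and peptide genes (lower panel) in EEC-PRE, EC and NON-EC, with 1 point per library; open points are 0 counts, drawn at 1. Neurog3 and Sox4 are highest in EEC-PRE in both libraries, Lmx1a and Tph1 are near 0 outside EC, and Gcg, Gip and Ghrl are at 0 in EC.

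Most early factors of the lineage that were called fell. Of 20 in the list, 18 passed the filter on low counts, 8 were lower in hormone cells, 1 was higher and 9 were not called, with a median of -0.74 against 0.22 over all genes. Neurog3 (chromosome 10, 62133090-62134763, + strand, mm10), the factor that commits a progenitor to the lineage, was at 823 and 794 CPM in EEC-PRE and 96.6 and 127 in hormone cells. Both hormone sums lay far below both EEC-PRE sums. The change was -2.88 ± 0.21 (adjusted p = 4.92e-10), a 7.38-fold lower level, and it was called in all 13 alternatives. Sox4, a factor of immature cells in many tissues (chromosome 13, 28948919-28953713, - strand), was at 1729.6 and 1486 CPM in EEC-PRE and 213 and 287 in hormone cells, a change of -2.69 ± 0.14 (adjusted p = 5.16e-23).

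Neurod2, a relative of Neurod1, was at 72.8 and 80.3 CPM in EEC-PRE and 12.3 and 15.3 in hormone cells, with a change of -2.48 ± 0.51. Hes6, a target of proneural factors, was at 228 and 169.5 CPM and 95 and 76.5 CPM, with a change of -1.25 ± 0.21. Cbfa2t3, Mycl, Rcor2 and Tox3 also fell, by changes of -0.89, -1.98, -1.90 and -0.58. Cbfa2t3 and Rcor2 encode corepressors and Mycl a Myc family factor. Without replicate 2, Cbfa2t3, Mycl and Tox3 were no longer called (adjusted p = 0.0716, 0.136 and 0.686), and without replicate 1 Neurod2 and Rcor2 were not (0.0536 and 0.415).

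Runx1t1, a corepressor related to Cbfa2t3, went the other way. It was at 43 and 84.8 CPM in EEC-PRE and 229.9 and 174 in hormone cells, a change of 1.74 ± 0.29 (adjusted p = 4.23e-06), and both hormone sums lay above both EEC-PRE sums. Without replicate 1 it was not called (adjusted p = 0.294).

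Neurod1, Insm1, Nkx2-2 and Pax4, factors that hormone cells are known to need, did not pass the test. Neurod1 was at 612 and 669 CPM in EEC-PRE and 1010.2 and 874 in hormone cells, with a change of 0.56 ± 0.23 (adjusted p = 0.185), although hormone sums were higher in both libraries. It was called higher with no filter on low counts and in cells thinned to 1500 UMIs (adjusted p = 5.39e-04 and 0.0020). Insm1, a zinc-finger repressor, was at 420.0 and 232 CPM in EEC-PRE against 334 and 147 in hormone cells. Its change of -0.46 ± 0.20 was not called (adjusted p = 0.140), but it was called lower with factors from all genes (adjusted p = 0.0468) and with relative log expression factors (0.0235). Nkx2-2 was at 119 and 93.7 CPM in EEC-PRE against 169 and 61.2 in hormone cells, and the sides overlapped. Pax4 was at 59.5 and 44.6 CPM in EEC-PRE against 32.2 and 19.5 in hormone cells, with both hormone sums below both EEC-PRE sums. Atoh1 itself, whose locus drives the Cre, was near 0 on both sides at 13.2 and 0 CPM in EEC-PRE against 7.66 and 27.8 in hormone cells, with 4 UMIs in EEC-PRE of replicate 1 and none in replicate 2.

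Per cell, Neurog3 marked most EEC-PRE cells and a minority of hormone cells. In cells thinned to 1500 UMIs it had at least 1 UMI in 68.5% (54.4 to 80.5) and 67.7% (54.7 to 79.1) of EEC-PRE cells, 12.5% (4.19 to 26.8) and 26.9% (16.8 to 39.1) of EC cells and 7.07% (2.89 to 14) and 12.5% (6.63 to 20.8) of NON-EC cells, with exact 95% intervals that cover counting error only. Stem-like cells, named ISC by the authors, should lack the gene and gave 0% and 0.423% at the same depth. Unthinned shares were 89.5% and 76.7% in EEC-PRE (median cell 3897 and 2157 UMIs, ISC 5825 and 3973), 23.8% and 39.8% in EC and 15.5% and 15.2% in NON-EC. Cells shallower than 1500 UMIs were left out, which kept 54 and 62 EEC-PRE, 40 and 67 EC and 99 and 96 NON-EC cells.

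Some cells held Neurog3 together with a granin transcript (Chga or Chgb). Of thinned EEC-PRE cells 6 of 54 and 10 of 62 held both, 31 and 32 held Neurog3 alone, 2 and 8 a granin alone, and 15 and 12 neither. In EC cells 5 of 40 and 18 of 67 held both and none held Neurog3 alone. In NON-EC cells the same counts were 6 of 99 and 12 of 96 with both and 1 and 0 with Neurog3 alone.

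**Figure D2:**
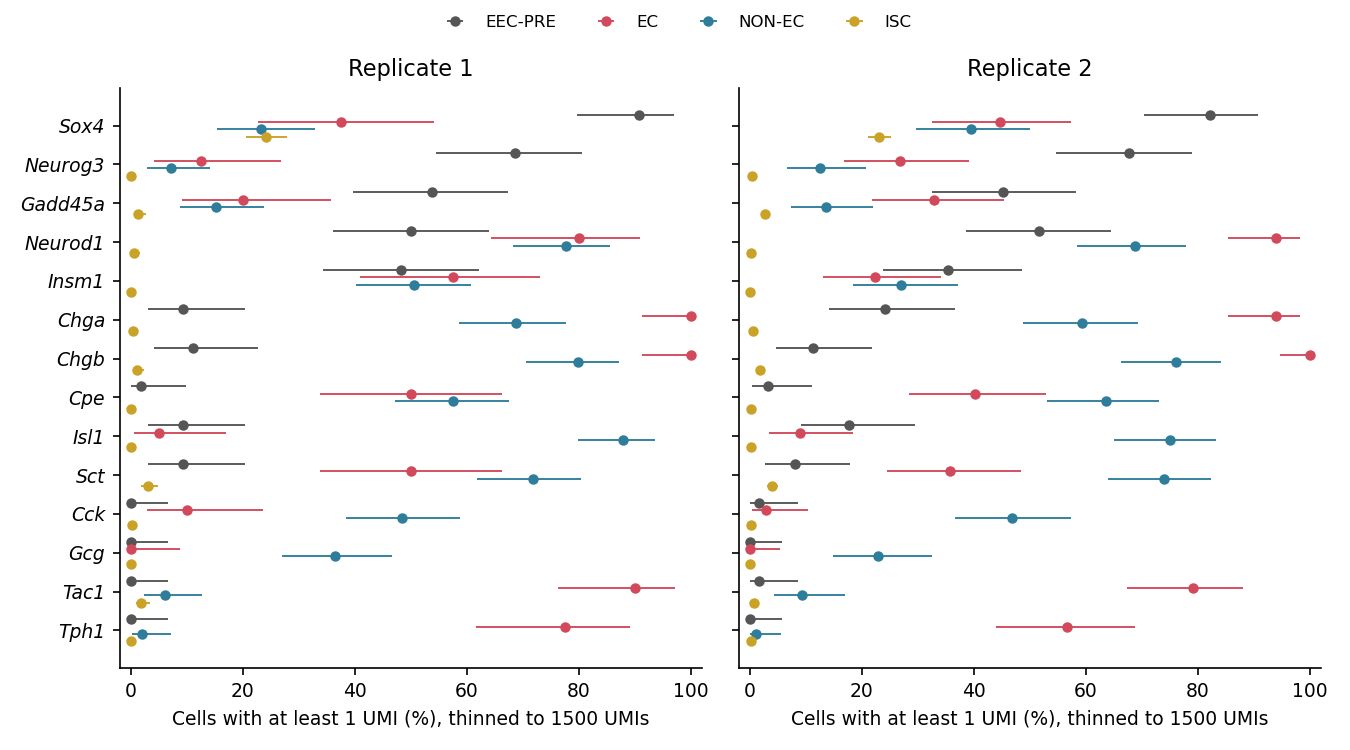
Percent of cells with at least 1 UMI of each gene after thinning each cell to 1500 UMIs, in EEC-PRE, EC, NON-EC and ISC, with 1 panel per library and exact 95% intervals as bars. Sox4 and Neurog3 are most frequent in EEC-PRE, Chgb reaches 100% of EC cells in both libraries, and Isl1 is found in 87.9% and 75.0% of NON-EC cells against at most 17.7% in the other classes drawn.

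Late and subtype factors rose in part. Of 23 in the list 18 passed the filter, and 11 were higher, none lower and 7 not called. Their median was 2.65, or 1.96 with the 4 members at 0 in EEC-PRE set to their lower bound. Over all genes tested 6.79% were higher and 3.88% lower. A member that passed the filter because hormone cells express it had to differ, so these counts describe the list and support nothing more. The same holds for the granin, serotonin, peptide hormone, exocytosis, ion channel, nutrient receptor and neuronal lists below. Fev, a factor of serotonin neurons and of maturing enteroendocrine cells (chromosome 1, 74881509-74885419, - strand), was at 23.1 and 44.6 CPM in EEC-PRE and 268 and 246 in hormone cells. Its change was 2.99 ± 0.31 (adjusted p = 1.08e-12). It was at 304 and 331 CPM in EC and 259 and 203 in NON-EC, and the difference between them was not called (0.46 ± 0.20, adjusted p = 0.410).

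Etv1, an Ets factor, was at 9.92 and 4.46 CPM in EEC-PRE against 269.8 and 145 in hormone cells, a change of 4.82 ± 0.49. Peg3, an imprinted zinc-finger gene, was at 43 and 116 CPM in EEC-PRE against 475 and 313 in hormone cells, a change of 2.41 ± 0.30. Pax6, a factor that activates islet and gut hormone genes, had 2 UMIs in EEC-PRE and 305 in hormone cells, a CPM ratio of 58.6 (95% counting interval 16.1 to 486). These factors were all higher in NON-EC than in EC by the test between the classes.

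Isl1 was at 86 and 192 CPM in EEC-PRE and 815 and 570.3 in hormone cells (2.39 ± 0.49, adjusted p = 0.0208). By class it was at 1073 and 896 CPM in NON-EC and 85.1 and 95.6 in EC, so that only NON-EC lay above EEC-PRE. Lmx1a, a factor of serotonin-making cells, was at 0 in EEC-PRE and in NON-EC of both libraries and at 243 and 114 CPM in EC. With EC and NON-EC weighted equally in place of pooled, Isl1 and Lmx1a were no longer called (adjusted p = 0.254 and 1.0), and without replicate 1 Lmx1a was not (0.0508).

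Egr3, Mnx1, Onecut3 and Prdm16 were higher but scarce, at most 58.2 CPM in a hormone sum. They lost their calls in 3, 5, 5 and 7 alternatives. The list had 6 genes called without replicate 1, 9 without replicate 2 and 4 by DESeq2. Rfx3, Rfx6, Myt1, St18, Tox, Zcchc12 and Hhex were not called. Rfx6, a factor needed for enteroendocrine hormone genes, was at 255 and 169.5 CPM in EEC-PRE and 219 and 159 in hormone cells, and the sides overlapped.

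Most of the granin and prohormone processing genes tested rose. Of 16 in the list 11 passed the filter and 9 were higher and none lower, where 6.79% of all genes tested were higher. The median of the list was 5.09, or 3.14 with the 3 members at 0 in EEC-PRE at their bound. Those 3 could not pass the filter through EEC-PRE. Chgb, the granin secretogranin-1 of dense-core vesicles (chromosome 2, 132781278-132795079, + strand), was at 268 and 495 CPM in EEC-PRE and 13848 and 13209 in hormone cells. This is a 36.9-fold higher level (5.21 ± 0.37, adjusted p = 2.34e-06). The rise was in both classes, to 40782 and 27782 CPM in EC and 4809 and 4526 in NON-EC. Chga, chromogranin A, was at 324 and 375 CPM in EEC-PRE against 2256 and 1646 in hormone cells (2.49 ± 0.43, adjusted p = 0.00472), and without replicate 1 it was not called (adjusted p = 0.143). RNA in barcodes with at most 50 UMIs, taken as free RNA, held 346 and 369 CPM of Chgb without scaling factors. These free RNA values are thus not on the scale of the EEC-PRE levels above. Such RNA could make up at most 6.04% and 5.58% of the EEC-PRE sums.

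Among the processing genes Cpe, the carboxypeptidase that trims prohormones, was at 6.61 and 26.8 CPM in EEC-PRE and 586 and 456 in hormone cells (5.09 ± 0.46). Pam, which amidates peptide ends, had 1 UMI in EEC-PRE and 324 in hormone cells, a ratio of 124 (95% counting interval 22.2 to 4929). Scg3 and Scg2, vesicle granins, were at 0 in EEC-PRE and at least 21.4-fold and 21-fold higher in hormone cells, taking 3 counts over both EEC-PRE sums as the limit of a count of 0. Scg3 was in both classes, at 109 and 69.9 CPM in EC and 143 and 142 in NON-EC, whereas Scg2 was at 0 in EC and at 245 and 107 CPM in NON-EC. Pcsk1n, Scg5 and Resp18 were also higher, with at most 80.7 CPM in a hormone sum. They lost their calls in 1, 4 and 2 alternatives. DESeq2 did not call Scg5, Resp18 or Scg2 (adjusted p = 0.89, 0.78 and 0.638), and edgeR did not call Scg5 in thinned cells (0.0725).

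Pcsk1, the convertase that makes GLP-1 from proglucagon, was not called. It was at 235 and 236 CPM in EEC-PRE and 357 and 253 in hormone cells, a change of 0.38 ± 0.18 (adjusted p = 0.178). Both hormone sums were above both EEC-PRE sums, and by class it was at 693 and 313 CPM in EC and 247 and 226 in NON-EC. The list had 6 genes called without replicate 1, 7 without replicate 2 and 5 by DESeq2.

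Promoter sequences are shown for 4 granin and hormone genes that rose and for Pcsk1, which was not called and holds the same element as Chgb. Each is 30 bases around a match in the 250 bases before the RefSeq gene start (GRCm38.p6, the assembly of mm10), written 5′ to 3′ on the gene's strand. Capitals mark the cAMP response element TGACGTCA in the first 4 and the E-box CAGATG in the last.
Chgb: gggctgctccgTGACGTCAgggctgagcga
Scg2: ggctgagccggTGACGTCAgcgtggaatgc
Pcsk1: ccaggtagatcTGACGTCAagagatggctt
Sst: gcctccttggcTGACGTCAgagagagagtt
Gcg: ccccattatttaCAGATGagaaatttatat
They lie at chr2:132781559-132781588 (+), chr1:79440076-79440105 (-), chr13:75089768-75089797 (+), chr16:23890874-23890903 (-) and chr2:62483719-62483748 (-). The first base of each match was 72, 68, 78, 48 and 83 bases before the RefSeq start. GENCODE M21 starts Chgb, Scg2 and Sst further upstream, so that these 3 windows overlap its first exon.

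TGACGTCA, which reads the same on both strands, was present in 3 of the 10 granin and processing genes that passed the filter and matched the table, in Chgb, Pcsk1 and Scg2. It was present in 1.77% of all 27025 genes of the table and in 3.14% of the 8808 tested genes that matched. Among 11 peptide hormone genes it was in Sst alone. CAGATG, searched on both strands, was in 5 of the 11 peptide hormone genes (Cck, Gcg, Iapp, Sct and Tac1), in none of the 10 granin genes and in 11.4% of tested genes. A match is a description of these letters. Pcsk1 holds the same element as Chgb and Scg2 and was not called.

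Serotonin genes rose in part, most of them with high levels in EC. Of 13 in the list 11 passed the filter, 7 were higher and none lower, with a median of 2.15 (1.46 with 3 members at their bound). Those 3 were at 0 in EEC-PRE and could not pass the filter through it, and 6.79% of all genes tested were higher. Tph1, the enzyme that starts serotonin synthesis in the gut (chromosome 7, 46644641-46672537, - strand), was at 0 in both EEC-PRE sums and at 284 and 219.8 CPM in hormone cells, at least 43.9-fold higher. It was at 1099.6 and 577 CPM in EC and 8.29 and 2.33 in NON-EC. In thinned cells it had a UMI in 77.5% (61.5 to 89.2) and 56.7% (44 to 68.8) of EC cells and in 2.02% and 1.04% of NON-EC cells. The EEC-PRE count was 0 of 54 and 0 of 62 cells, which allows a share of up to 5.56% and 4.84%.

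Ddc, which makes serotonin from its precursor and also dopamine from its own, was already at 331 and 406 CPM in EEC-PRE and reached 669.9 and 517 in hormone cells (0.70 ± 0.17, adjusted p = 0.00374). Gch1, which makes the cofactor of Tph1, rose from 36.4 and 31.2 to 273 and 157 CPM (2.65 ± 0.36), and Qdpr, which regenerates that cofactor, from 36.4 and 26.8 to 99.6 and 79.3 CPM (1.46 ± 0.36). Slc18a1, the vesicular monoamine transporter, was at 16.5 and 17.8 CPM in EEC-PRE, 219 and 151 in EC and 31.1 and 28 in NON-EC (2.15 ± 0.44 for the pool). The serotonin reuptake transporter Slc6a4 and the degrading enzymes Maoa and Maob were not called, with at most 19.5 CPM in a hormone sum. Without replicate 1 only 2 of the 7 were called (7 without replicate 2), and Ddc, Qdpr, Slc18a1, Lmx1a and Chga were not (adjusted p = 0.51, 0.135, 0.0652, 0.0508 and 0.143).

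Peptide hormone transcripts were close to absent in EEC-PRE and abundant in hormone cells. Of 24 in the list 23 were in the files and 11 passed the filter. Of these 10 were higher and none lower, with a median of 8.44 (6.92 with 5 members at their bound). Those 5 were at 0 in EEC-PRE and could not pass the filter through it, so the counts describe the list. Over all genes tested 6.79% were higher. Gcg (chromosome 2, 62474530-62483650, - strand) was at 0 in EEC-PRE and at 2926 and 956 CPM in hormone cells, at least 332-fold higher. Gip, the incretin of the upper gut, was at 0 in EEC-PRE and at 468 and 1751 CPM in hormone cells, at least 200.2-fold higher. Its level was higher in replicate 2, whereas that of Gcg was higher in replicate 1. Sst, the inhibitory peptide somatostatin, was at 0 in EEC-PRE and at 622 and 376 CPM in hormone cells, at least 86.5-fold higher, and Nts and Iapp, at 0 in EEC-PRE too, were at 69 and 41.7 CPM and at 39.9 and 20.9 CPM.

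Cck had 3 UMIs in EEC-PRE and 2612 in hormone cells, a ratio of 334 (95% counting interval 114 to 1622). Pyy had 2 and 1548, a ratio of 297 (95% counting interval 82.1 to 2456). Ghrl was at 0 and 22.3 CPM in EEC-PRE, all of it in replicate 2, and at 2141 and 1529 in hormone cells (7.58 ± 0.69, adjusted p = 2.23e-05). Tac1, the substance P gene and a marker of enterochromaffin cells, was at 9.92 and 4.46 CPM in EEC-PRE against 984 and 762 in hormone cells (6.92 ± 0.34).

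Sct had 20 and 21 UMIs in EEC-PRE. It was at 66.1 and 93.7 CPM in EEC-PRE and 2710.1 and 1475 in hormone cells (4.73 ± 0.39, adjusted p = 7.98e-06), a 26.6-fold rise, and it was in both EC (772 and 871 CPM) and NON-EC (3400.2 and 1920.1 CPM). In thinned cells it had a UMI in 9.26% and 8.06% of EEC-PRE cells, 50% and 35.8% of EC cells, 71.7% and 74% of NON-EC cells and 2.96% and 4.05% of ISC cells. Nucb2, which encodes nesfatin-1 and is widely expressed, was not called (6.61 and 17.8 CPM in EEC-PRE against 70.5 and 76.5 in hormone cells, adjusted p = 0.0775). Its change was called higher in 5 alternatives, among them thinned cells (edgeR adjusted p = 2.99e-05) and DESeq2 (adjusted p = 0.0042). The list had 8 genes called without replicate 1, 10 without replicate 2, 9 by DESeq2 and 5 with EC and NON-EC weighted equally.

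Within NON-EC, single cells often carried more than 1 peptide. Cells thinned to 1500 UMIs were scored for 7 hormones (Cck, Gcg, Ghrl, Gip, Nts, Pyy and Sst), a hormone counting at 2 or more UMIs. Of NON-EC cells, 28 of 99 and 31 of 96 carried none, 30 and 37 carried 1, and 41 (41.4%) and 28 (29.2%) carried 2 or more. Among EEC-PRE cells 0 of 54 and 1 of 62 carried a hormone, among EC cells 2 of 40 and 1 of 67, and among ISC cells, which should lack these hormones, 0 of 540 and 4 of 1653.

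Gcg went with Cck and Pyy, whereas Ghrl was often alone. Of 30 and 19 cells with Gcg, 25 and 16 also held Cck and 24 and 13 also held Pyy, and 1 and 2 held Gcg alone. Of 29 and 27 cells with Ghrl, 14 and 18 held no other of the 7, while 13 and 6 also held Gcg. Gip was in 8 and 9 cells, of which 4 and 5 also held Cck and 0 and 1 held Gcg. Sst was in 1 and 5 cells and alone in 1 and 4 of them.

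**Figure D3:**
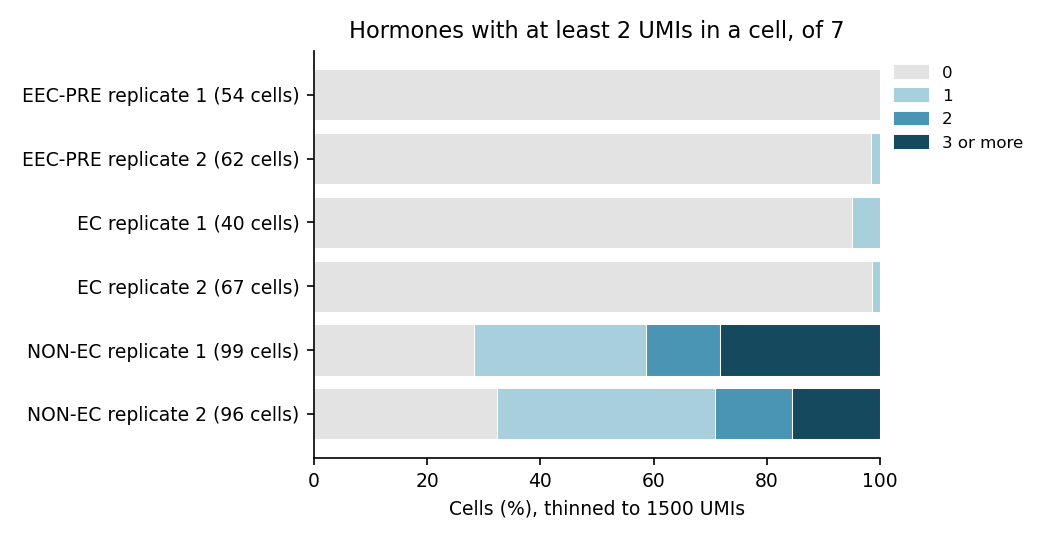
Percent of cells (thinned to 1500 UMIs) with 0, 1, 2 or 3 or more of 7 peptide hormones at 2 or more UMIs each, 1 bar per class and library. NON-EC cells with 2 or more make up 41.4% in replicate 1 and 29.2% in replicate 2, and no EEC-PRE or EC cell has 2.

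Genes of vesicle docking and exocytosis rose in part. Of 38 in the list 33 passed the filter, and 14 were higher, none lower and 19 not called, with a median of 1.94 (1.56 with 2 members at their bound). Over all genes tested 6.79% were higher. Ptprn2, the vesicle protein phogrin, was at 69.4 and 98.2 CPM in EEC-PRE and 474 and 316 in hormone cells (2.26 ± 0.25, adjusted p = 1.79e-09). Bex2, counted in this list although no part in vesicle docking is claimed for it here, was at 16.5 and 31.2 CPM in EEC-PRE. It was at 103 and 153 CPM in hormone cells (2.50 ± 0.39). Of members named after their values were seen, Cadps, which primes dense-core vesicles, was at 6.61 and 4.46 CPM in EEC-PRE against 85.8 and 64 in hormone cells (3.73 ± 0.69), and Cplx2, a complexin of the fusion complex, at 109 and 183 CPM in EEC-PRE against 340.3 and 319 in hormone cells (1.21 ± 0.22). Snap25 and Stx1a, SNARE proteins of the plasma membrane, rose too (2.45 ± 0.58 and 2.70 ± 0.80), while their partner Vamp2 was not called (1.24 ± 0.49, adjusted p = 0.0913). Rab3c, a vesicle GTPase, was at 650.0 and 319.9 CPM in EC and at 0 in NON-EC, and its pooled change of 4.68 became -0.19 with EC and NON-EC weighted equally. Without replicate 1, 5 genes of this list were called and without replicate 2 10 were.

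Ion channel genes gave 6 higher and none lower of 18 that passed the filter, from a list of 32, where 6.79% of all genes tested were higher. Scn3a, a voltage-gated sodium channel, was at 29.8 and 26.8 CPM in EEC-PRE and 333 and 198 in hormone cells (3.26 ± 0.31, adjusted p = 8.32e-14), with 1027 and 415 CPM in EC and 99.5 and 67.7 in NON-EC. Cacna2d1, a calcium channel subunit, rose from 43 and 62.5 to 202 and 163 CPM (1.83 ± 0.33). Abcc8, the sulfonylurea receptor of the K-ATP channel, was at 0 and 8.92 CPM in EEC-PRE, 0 and 3.68 in EC and 128 and 58.3 in NON-EC (4.08 ± 0.87 for the pool). Cacna1a, another calcium channel, named after its values were seen, was at 271 and 379 CPM in EEC-PRE and was not called (0.27 ± 0.17, adjusted p = 0.374). Without replicate 1 only 1 of the 18 was called, and neither Cacna2d1 nor Abcc8 was (adjusted p = 0.143 and 0.458).

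Of 31 nutrient receptors and transporters listed, 13 passed the filter, and 5 were called higher and none lower, where 6.79% of all genes tested were higher. As 8 of the 13 were at 0 in EEC-PRE, they passed the filter only through hormone cells. Ffar1, a receptor of long-chain fatty acids, was at 0 in EEC-PRE and at 192 and 75.1 CPM in hormone cells, at least 22.9-fold higher, almost all of it in NON-EC (257 and 126 CPM, against 6.08 and 0 in EC). Slc5a1, the sodium-glucose transporter through which these cells sense glucose, was at 0 and 13.4 CPM in EEC-PRE and 130.3 and 66.8 in hormone cells (4.11 ± 0.67, adjusted p = 3.32e-05). Slc15a1, a peptide transporter, and the hormone receptors Avpr1b and Sstr5 were called too, at 0 in EEC-PRE and at most 33.7 CPM in a hormone sum. Slc15a1 lost its call in 5 alternatives, DESeq2 among them (adjusted p = 0.784). Ffar1 was not called with EC and NON-EC weighted equally (edgeR adjusted p = 0.0717) or by DESeq2 (0.634). The list had 2 higher calls with that weighting and 1 by DESeq2. Ffar2, a receptor of short-chain fatty acids, was at 136 and 228 CPM in EEC-PRE and 269.8 and 198 in hormone cells and was not called. Avpr1b, Sstr5 and Ffar2 were named after their values were seen. Without replicate 1, 1 of the 13 was called.

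Of 15 neuronal genes that passed the filter, 5 rose and 1 fell, where 6.79% of all genes tested were higher and 3.88% lower. Map1b, a microtubule protein of axons, was at 13.2 and 0 CPM in EEC-PRE and 299 and 260.1 in hormone cells (5.21 ± 0.42, adjusted p = 1.42e-17), with 401 and 272 CPM in EC, 267 and 264 in NON-EC and no difference called between them (0.31 ± 0.20, adjusted p = 0.713). Tubb2b, a tubulin of immature neurons, went the other way, from 265 and 134 to 32.2 and 34.8 CPM (-2.63 ± 0.33, adjusted p = 1.11e-07). Bex3, Gng4, Nefl and Cdk5r2 were the others that rose, the last 3 named after their values were seen. The list had 2 higher calls without replicate 1, 2 with DESeq2 and 3 with no library term.

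**Figure D4:**
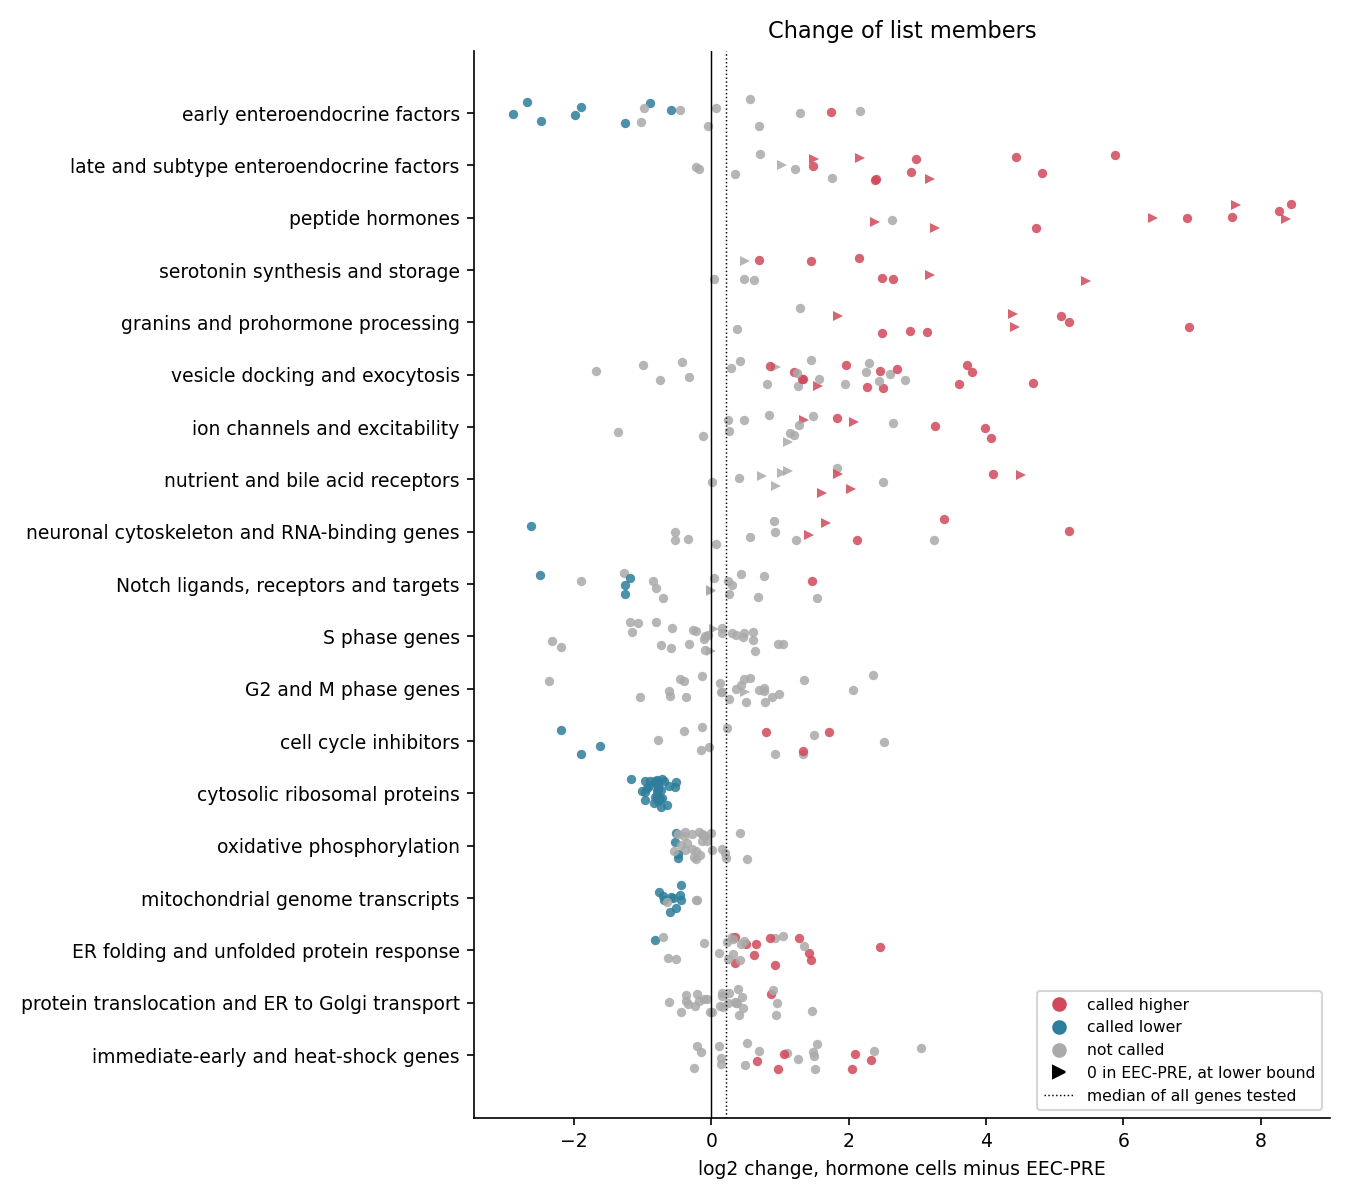
log2 change (hormone cells minus EEC-PRE) of each tested member of 19 gene lists, red where called higher, blue where called lower and grey where not called; arrowheads are members at 0 in EEC-PRE, drawn at their lower bound, and the dotted line is the median of all genes, 0.22. The early factors reach down to -2.88 and the 30 ribosomal protein genes lie together between -1.17 and -0.52, while the peptide hormones lie to the right.

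Notch genes were called in both directions. Of 25 listed 20 passed the filter, 4 fell (Hes6, Lfng, Rbpj and Dll1) and 1 rose (Neurl3), Rbpj and Hes1 being named after their values were seen. Over all genes tested 3.88% were lower and 6.79% higher, so 1 higher gene of 20 is near the share over all genes. Dll1, the ligand that secretory progenitors show their neighbours, was at 59.5 and 40.2 CPM in EEC-PRE and 12.3 and 29.2 in hormone cells (-1.26 ± 0.42, adjusted p = 0.0343). It was not called without replicate 1 (adjusted p = 0.85) or without the library term (0.0584). Lfng was not called without replicate 1 or without replicate 2 (adjusted p = 0.111 and 0.164), nor Neurl3 without replicate 1 (0.421). The list had 1 lower call without replicate 1 and 0 in cells thinned to 1500 UMIs. Lfng, which modifies Notch, was at 23.1 and 35.7 CPM in EEC-PRE against 4.60 and 5.56 in hormone cells (-2.50 ± 0.67), and Rbpj, the DNA-binding partner of Notch, at 82.7 and 71.4 CPM in EEC-PRE against 24.5 and 45.9 in hormone cells (-1.19 ± 0.33). Neurl3, a ubiquitin ligase of the Neuralized family, rose from 19.8 and 62.5 to 99.6 and 111 CPM (1.46 ± 0.36). The target Hes1 was at 13.2 and 17.8 CPM in EEC-PRE against 9.20 and 23.6 in hormone cells and was not called.

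Neither S phase nor G2 and M phase genes differed by the test. All 30 genes of each list passed the filter and edgeR called none, with 2 of each list at an unadjusted p under 0.05. DESeq2 called 0 of them as well, and without replicate 2 edgeR called 1 S phase gene lower. The medians were -0.07 and 0.49 (-0.10 and 0.43 at the bounds). Mki67, the proliferation marker, was at 66.1 and 53.5 CPM in EEC-PRE and 39.9 and 96 in hormone cells (0.16 ± 0.42, adjusted p = 0.882). It had a UMI in 5.56% and 6.45% of thinned EEC-PRE cells, 2.50% and 8.96% of EC cells and 4.04% and 11.5% of NON-EC cells, against 35.6% and 36.5% of ISC cells. In simulated sums of this depth a 2-fold change was called for 38% of genes and a 4-fold change for 94%. Smaller changes could thus be missed. Mean log2 CPM reached 5 in only 2 of the 30 S phase genes and 4 of the 30 G2 and M phase genes. Recovery at the lower levels of the other genes in these lists was not tested.

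Inhibitors of the cell cycle changed in both directions. Of 17 listed 16 passed the filter, 3 rose (Cdkn1b, Rb1 and Cdkn1c) and 3 fell (Gadd45a, Gadd45g and Ccng2). Over all genes tested 6.79% were higher and 3.88% lower. Cdkn1b, the CDK inhibitor p27, was at 56.2 and 35.7 CPM in EEC-PRE and 196 and 113 in hormone cells (1.72 ± 0.28, adjusted p = 2.29e-06), with 395 and 158 CPM in EC. Gadd45a, a growth-arrest gene, fell from 486 and 286 to 101 and 111 CPM (-1.89 ± 0.20, adjusted p = 4.35e-11), and Gadd45g from 245 and 156 to 70.5 and 64 CPM (-1.62 ± 0.25). Cdkn1c, the inhibitor p57, and Rb1, the retinoblastoma gene, had changes of 0.79 ± 0.26 and 1.34 ± 0.42. Both were named after their values were seen. The list had 1 higher and 2 lower calls without replicate 1, the same counts without replicate 2, and 1 higher and 3 lower with DESeq2. Ccng2 was not called without either replicate (adjusted p = 0.158 without replicate 1 and 0.086 without replicate 2).

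Cdkn1a, the inhibitor p21 (chromosome 17, 29090976-29100727, + strand), was not called in the pool, and its classes moved apart. It was named after its values were seen, and was at 569 and 647 CPM in EEC-PRE, 30.4 and 29.4 in EC and 1144 and 926 in NON-EC. The change was -4.37 ± 0.45 in EC and 0.75 ± 0.21 in NON-EC, both called, and the difference between the classes was -5.13 ± 0.39 (adjusted p = 1.74e-07).

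All 30 cytosolic ribosomal protein genes were lower in hormone cells, between -1.17 and -0.52 with a median of -0.79. Without scaling factors the list summed to 94944 and 84200.0 CPM in EEC-PRE, 51299 and 52563 in EC and 53369 and 54623 in NON-EC. Rpl3 was at 1809 and 1450.1 CPM in EEC-PRE against 808 and 811 in hormone cells (-1.0045 ± 0.10, adjusted p = 1.08e-12), and the sides did not overlap. All 30 were lower in 11 of the 13 alternatives, and 28 were lower with no library term and 28 without replicate 1. As many ribosomal protein genes have processed copies in the genome, single members are less certain than the list. Of 30 ribosome biogenesis genes only Npm1 was called, lower (-1.15 ± 0.12).

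Most transcripts of the mitochondrial genome also fell. Of 13 measured 10 were lower and none higher, with a median of -0.55. The shares over all genes tested, 6.79% higher and 3.88% lower, belong beside this list and the nuclear one below. Without scaling factors the 13 summed to 49045 and 42267 CPM in EEC-PRE, 26136 and 31004 in EC and 30874 and 34144 in NON-EC. The median share of mitochondrial UMIs per cell moved with this list (4.72% and 3.83% in EEC-PRE, 2.69% and 2.68% in hormone cells), no listed cell exceeded 6.998%, and the part of cell quality was not tested. mt-Atp6, a subunit of ATP synthase, was at 6978 and 4957 CPM in EEC-PRE against 3446 and 3483 in hormone cells (-0.76 ± 0.13). None of the 13 was called without replicate 1, 9 were without replicate 2 and 5 with no library term. Of 30 nuclear genes of oxidative phosphorylation 4 were lower (Cox4i1, Atp5b, Ndufb9 and Cox5a, the last named after its values were seen) and none higher, with a median of -0.22, and 9 were lower with relative log expression factors, 8 by DESeq2, 2 with no library term and 0 without replicate 1.

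Genes of protein folding in the endoplasmic reticulum rose in part. Of 28 tested 11 were higher and 1 lower, with a median of 0.42, where 6.79% of all genes tested were higher and 3.88% lower. By class, 9 were higher in NON-EC than in EEC-PRE and 1 in EC. Over all genes the shares were 6.06% and 4.65%, so the 1 in EC is near its share. Between the classes 3 were lower and 1 higher in EC, where 0.728% of all genes were lower and 0.791% higher. Hspa5, the chaperone BiP, was at 429.9 and 700.5 CPM in EEC-PRE and 843 and 1178 in hormone cells (0.86 ± 0.13, adjusted p = 2.63e-07), and was called in all 13 alternatives. Canx, a lectin chaperone, was at 218 and 228 CPM in EEC-PRE against 337 and 355 in hormone cells (0.63 ± 0.16). Atf6, a stress sensor of that compartment, was at 66.1 and 31.2 CPM in EEC-PRE against 348 and 217 in hormone cells (2.46 ± 0.27), with 1239 and 500.1 CPM in EC and 47.7 and 46.7 in NON-EC. Dnajc10, a disulfide reductase, was lower (347 and 259 CPM in EEC-PRE against 184 and 163 in hormone cells, -0.82 ± 0.24), but not without replicate 1 or without replicate 2 (adjusted p = 0.624 and 0.297). Xbp1, the other main regulator, was not called (119 and 219 CPM in EEC-PRE against 201 and 259 in hormone cells, adjusted p = 0.114), and was chosen for naming after its values were seen. The calls depended on the scaling and the library: 3 were higher with relative log expression factors, 6 with factors from all genes, 3 by DESeq2, 5 with no library term, 2 without replicate 1 and 4 without replicate 2. Canx was not called in 5 alternatives, with relative log expression factors (adjusted p = 0.0637) and without either replicate (0.116 and 0.0658) among them. Of 30 genes of translocation and vesicle transport only Kdelr2 was called, higher (0.87 ± 0.25), and with relative log expression factors none was higher and 2 were lower. Kdelr2 was not called without replicate 2 either (adjusted p = 0.426).

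Immediate-early and heat-shock genes, which cell dissociation is known to induce, were in part higher in hormone cells. Of 23 tested 6 rose and none fell, with a median of 1.06, where 6.79% of all genes tested were higher. Klf6, an early response factor, was at 26.5 and 44.6 CPM in EEC-PRE and 166 and 129 in hormone cells (2.09 ± 0.32, adjusted p = 5.97e-07). Jun was at 301 and 459.6 CPM in EEC-PRE against 749.6 and 803 in hormone cells (1.06 ± 0.17), Zfp36, which destabilises messenger RNA, at 33.1 and 8.92 CPM in EEC-PRE against 126 and 55.6 in hormone cells (2.05 ± 0.39), and Ier2, Atf3 and Hsp90aa1 rose as well. These 3 and Fos were named after their values were seen. Fos, at 159 and 178 CPM in EEC-PRE against 506 and 470.2 in hormone cells, was not called (1.53 ± 0.45, adjusted p = 0.0568), although both hormone sums were above both EEC-PRE sums. The list had 3 higher calls without replicate 1, where Jun was not called (adjusted p = 0.053), but 10 with only the 4 sums, 10 with DESeq2, which also called 1 lower, and 11 in thinned cells. Zfp36 was not called with no library term (adjusted p = 0.376). The part of dissociation in these values was not tested.

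The largest decreases among abundant genes outside these lists were in genes of varied function. Cdc14b, a phosphatase of the cell cycle (chromosome 13, 64189268-64275290, - strand), was at 165 and 156 CPM in EEC-PRE and 21.5 and 11.1 in hormone cells (-3.33 ± 0.38, adjusted p = 4.21e-11). Mfge8, a secreted protein that bridges cells, was at 103 and 89.2 CPM in EEC-PRE against 10.7 and 9.74 in hormone cells (-3.28 ± 0.41). Bcl2, which protects from apoptosis (chromosome 1, 106538178-106714274, - strand), was at 132 and 134 CPM in EEC-PRE against 10.7 and 18.1 in hormone cells (-3.18 ± 0.34). Amotl1 and Amotl2, related partners of the Yap pathway, both fell, by changes of -3.03 ± 0.41 and -3.18 ± 0.41. Dmpk, a kinase, and the RNA-binding Mex3a fell too (-2.61 ± 0.35 and -2.42 ± 0.44), Mex3a not without replicate 1 (adjusted p = 0.0533). Each of these 7 was called lower in EC and in NON-EC, with no difference called between the classes.

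Among the largest increases outside the lists were Cxxc4, a Wnt pathway inhibitor, and Gnao1, a G protein of neurons and endocrine cells. Cxxc4 was at 6.61 and 22.3 CPM in EEC-PRE and 383 and 219.8 in hormone cells (4.53 ± 0.37, adjusted p = 1.92e-17). Cxxc4 was higher in NON-EC than in EC (-2.27 ± 0.25). Gnao1 was at 6.61 and 13.4 CPM in EEC-PRE against 213 and 119.6 in hormone cells (4.13 ± 0.49). For both genes every hormone sum was above every EEC-PRE sum.

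EC and NON-EC were then set against EEC-PRE one by one, in a fit of 10994 genes that kept them apart. Both comparisons use the same EEC-PRE sums, so their values are given side by side. In EC 511 genes (4.65%) were higher and 315 (2.87%) lower than in EEC-PRE, and in NON-EC 666 (6.06%) and 391 (3.56%). EC and NON-EC themselves differed in 167 genes, 87 (0.791%) higher and 80 (0.728%) lower in EC. Without replicate 1, 81 genes differed. The goblet marker sum of EC was far lower in replicate 1 than in replicate 2, and its part in these calls was not tested.

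Neurog3 fell in both classes and further in NON-EC. It was at 219 and 235 CPM in EC and 55.9 and 63 in NON-EC, changes of -1.89 ± 0.23 and -3.81 ± 0.24, and the difference was called (1.91 ± 0.33, adjusted p = 3.41e-04). Sox4 had changes of -2.37 and -2.87 with no difference called (adjusted p = 0.314). Foxa1, a pioneer factor of endoderm, was higher in EC at 170.1 and 143 CPM, against 49.7 and 42 in NON-EC and 52.9 and 44.6 in EEC-PRE (1.75 ± 0.29 between the classes, adjusted p = 9.52e-06). Of the 18 early factors tested, 3 differed between the classes, Neurog3, Foxa1 and Runx1t1, all higher in EC.

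Late factors split in both directions, with 2 of 18 higher in EC and 5 higher in NON-EC. Lmx1a was at least 49.4-fold higher in EC than in NON-EC and Mnx1 was at 109 and 47.8 CPM in EC against 12.4 and 0 in NON-EC. Isl1, Etv1, Pax6 and Peg3 were among those higher in NON-EC, by differences (EC minus NON-EC) of -3.46 ± 0.48, -1.60 ± 0.31, -2.17 ± 0.31 and -1.68 ± 0.23. Chgb and Chga were higher in EC (2.89 ± 0.42 and 2.40 ± 0.39, adjusted p = 0.00251 and 0.00982), whereas Cpe and Pam were lower (-0.93 ± 0.21 and -1.0002 ± 0.23, adjusted p = 0.0165 and 0.00434). Pcsk1, not called in the pool, was higher in EC than in NON-EC (1.00 ± 0.19, adjusted p = 1.70e-04).

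Gcg, Ghrl and Gip had no UMI in EC and were at least 415-fold, 399-fold and 249.8-fold higher in NON-EC, and Pyy had 1 UMI in EC, a ratio of NON-EC to EC of 741 (95% counting interval 133 to 29293). Cck was at 91.1 and 22.1 CPM in EC and 3777 and 1792 in NON-EC (-5.72 ± 0.22). Sst was at 0 and 147 CPM in EC and 841 and 537 in NON-EC (-2.91 ± 0.56, adjusted p = 0.0347). Tac1 was the 1 peptide of 11 that was higher in EC, at 3669 and 1849 CPM against 78.7 and 105 (4.90 ± 0.20, adjusted p = 4.83e-18), and 8 were higher in NON-EC.

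**Figure D5:**
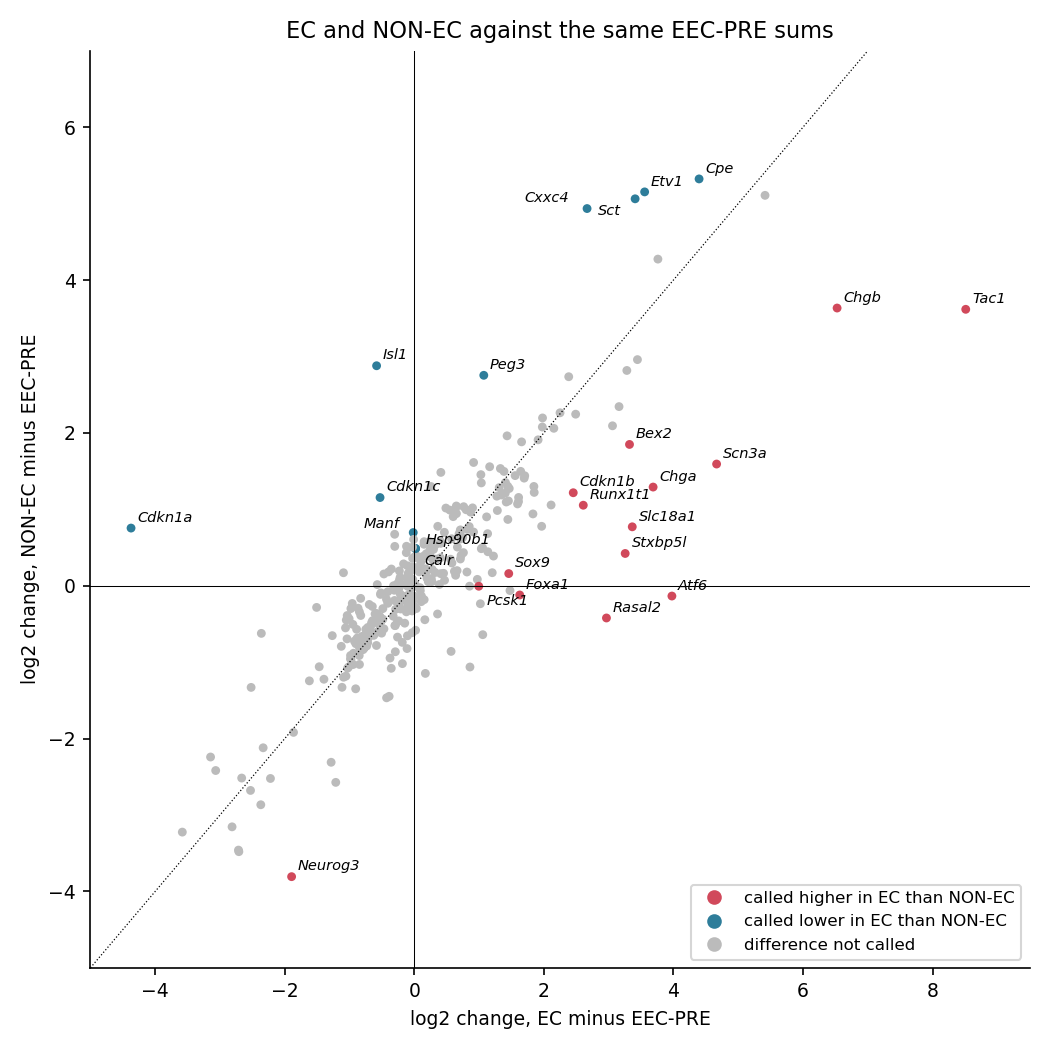
log2 change from EEC-PRE in EC (x axis) and in NON-EC (y axis) of 340 genes, members of the lists or named genes with at least 4 UMIs in each of the 3 classes; both axes share the EEC-PRE sums, the dotted line marks equal change, and labels mark the 15 genes called higher and the 11 called lower in EC than in NON-EC. Tac1 and Chgb lie to the right of the line, Cdkn1a and Isl1 to its left.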

How the data were processed

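Raw UMI counts per gene and barcode were deposited for 2 libraries, made with Cell Ranger 3.0.2 and STAR on mm10 per the submitters' processing notes. A deposited cell table gives each kept cell its library, class, UMI count and the percent of mitochondrial UMIs, and its listed cells hold 601 to 2999 genes. The matrices hold 66021021 and 40869800 UMIs.

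UMIs of listed cells were summed for every class of the cell table and each library, EC and NON-EC as 1 class, giving 22 sums. The spread in the main fit was estimated from all 22. edgeR 4.0.16 (R 4.3.3) was fitted with class and library terms, TMM factors from the 1931 genes whose mean log2 CPM reached 6, filterByExpr, the quasi-likelihood test and Benjamini-Hochberg adjustment over all genes tested, with a threshold of 0.05. A fit of 24 sums kept EC and NON-EC apart. Each library gives both sides, so library was a block, and the library differences of both sides correlated at 0.229 across genes. DESeq2 1.42.0 was an alternative. The script was tested on simulated data. No doublet caller was run, and leaving out cells with over 5% goblet or Paneth marker UMIs was an alternative chosen after seeing the data. Intervals are exact binomial ones and cover counting error only.

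The members and gene lists were chosen with earlier results of these data known. Genes named were the 12 largest changes in each direction among called genes whose mean log2 CPM reached 5 with 1 direction in both libraries, the 3 members of smallest p in each list and any member against its list, all members of the 5 enteroendocrine lists, the 5 largest differences each way between EC and NON-EC, and Neurog3, Neurod1, Chga, Chgb, Atoh1, Mki67 and Dll1. Some genes that the rule names are not reported here. Others are said to be named after their values were seen. Gene positions are from GENCODE M21.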

Additional observations from a re-analysis of the deposited data

Results flagged for a closer look

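In 3 genes EC and NON-EC were called in opposite directions against EEC-PRE, and the difference between the classes was itself called. Both comparisons share the EEC-PRE sums. Cdkn1a differed by -5.13 ± 0.39 on the log2 scale (EC minus NON-EC, adjusted p = 1.74e-07, edgeR). Gspt1, a translation termination factor, was at 308 and 344 CPM in EEC-PRE, 619.7 and 596 in EC and 139 and 152 in NON-EC, a difference of 2.07 ± 0.17 (adjusted p = 4.32e-17, edgeR). Nefm, a neurofilament gene, was at 52.9 and 98.2 CPM in EEC-PRE, 6.08 and 3.68 in EC and 219.6 and 184 in NON-EC, a difference of -5.46 ± 0.62 (adjusted p = 1.77e-10, edgeR).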

How the results depend on the processing

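The 765 genes called higher became 434 when genes needed an average log2 CPM of at least 5, 375 in cells thinned to 1500 UMIs, 316 with DESeq2, and 148 to 507 when a replicate was left out. The 437 called lower became 169 to 325 when a replicate was left out, and the 167 that differed between EC and NON-EC became 81 to 130. The cause was not tested, but fewer genes or sums enter the first 2 settings and the leave-one-out fits. With no library term, which removes the pairing of sides by library (no replicate block), 540 genes were higher and 307 lower, and 16 named genes lost their call. Of 155 named genes 105 were called, and 40 of these were called in every alternative that tested them. Without replicate 1, 41 named genes lost their call, and without replicate 2, 18 did. Among named genes called in the main fit or in the alternative, Rab3c alone changed sign, to -0.19 with EC and NON-EC weighted equally. That setting averages the log2 levels of EC and NON-EC, and Rab3c had 194 UMIs in EC and 0 in NON-EC. In simulated sums 14%, 38%, 94% and 96% of genes changed 1.5-fold, 2-fold, 4-fold and 8-fold were recovered. With 2 sums a side of this depth many changes under 4-fold could thus be missed. Recovery of scarce genes was not tested separately.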

Other observations

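Calls in the signalling lists between EEC-PRE and hormone cells are to be read beside the shares over all genes tested, 6.79% higher and 3.88% lower. Of 13 tested BMP pathway and Id genes 2 rose, Id2 (33.1 and 22.3 CPM in EEC-PRE and 65.9 and 75.1 in hormone cells) and Id3 (6.61 and 4.46 CPM in EEC-PRE against 41.4 and 43.1 in hormone cells), which encode inhibitors of basic helix-loop-helix factors. Id2 was not called without replicate 1 or without replicate 2 (edgeR adjusted p = 0.0828 and 0.249) or with DESeq2 (0.0711), and neither was called in thinned cells. Of 15 Wnt targets Cd44 rose (6.61 and 0 CPM in EEC-PRE against 39.9 and 52.9 in hormone cells) and Prox1 fell (179 and 228 CPM in EEC-PRE against 129 and 131 in hormone cells). Prox1 was not called in 6 alternatives, including those without replicate 1 (edgeR adjusted p = 0.209) and without replicate 2 (0.419). Of 22 class I MHC and interferon genes H2-Q2 rose (1.82 ± 0.44) and Ifitm2 fell (-1.28 ± 0.16). H2-Q2 lost its call without replicate 1 and with no library term (edgeR adjusted p = 0.0557 for the latter). B2m, not called in the main fit, was called lower in 9 alternatives, DESeq2 among them (-0.66, adjusted p = 0.0137). Of 6 tested stem cell markers Smoc2 (136 and 107 CPM in EEC-PRE against 49.1 and 38.9 in hormone cells) and Slc12a2 (245 and 259 CPM in EEC-PRE against 76.6 and 156 in hormone cells) were lower, and of 9 enterocyte markers Sis (146 and 161 CPM in EEC-PRE against 549 and 303 in hormone cells) and Rbp2 (13.2 and 4.46 CPM in EEC-PRE against 199 and 96 in hormone cells) were higher. Without replicate 1 Slc12a2, Sis and Rbp2 were not called (edgeR adjusted p = 0.136, 0.0882 and 0.421). No tested marker of tuft, immune or stromal cells was called between EEC-PRE and the pooled hormone cells by edgeR or DESeq2, with 1 of 3 stromal markers and none of the others at an unadjusted p under 0.05. In EC against EEC-PRE edgeR called 1 of the 3 stromal markers higher, Pecam1, at 0 in EEC-PRE and at 36.5 and 14.7 CPM in EC (adjusted p = 0.0410), named after its values were seen.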
